A study of Mus musculus and Homo sapiens with 14 samples.

Results

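Chemokines and chemokine receptors were described in 2 kinds of mouse material, EL4 tumours and drug-treated EG7-OVA cells. The members were all genes whose symbol starts with Ccl, Cxcl, Ccr or Cxcr followed by a digit, together with Xcl1, Xcr1, Cx3cl1 and Cx3cr1. Of the 68 such symbols found in either count table, 54 had 10 or more reads in at least 1 table, out of 50559 gene entries in the tumour table and 55969 in the EG7-OVA table. All 54 reached 10 reads in the tumours (36 ligands and 18 receptors), and 31 of them also did so in EG7-OVA cells (15 ligands and 16 receptors). The other 23 reached 10 reads in the tumours alone. Ligands and receptors were told apart by symbol, so the 36 ligands include the pseudogene Ccl19-ps2.

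EL4 is a mouse T cell lymphoma line, and EG7-OVA is a derivative of it that carries chicken ovalbumin. The groups were P3 tumours and P0 tumours of EL4, and EG7-OVA cells given azacytidine at 1.5 µM, decitabine at 0.2 µM or the solvent DMSO, with 2 libraries in each group and a wild-type genotype stated for all 10. Drug or solvent was added at 0, 24 and 48 h and RNA was taken at 72 h. What P0 and P3 stand for, which host carried the tumours and whether the 2 libraries of a group came from separate animals or cultures are not given in the labels, so that p-values measure the spread between these libraries, which may be technical. Azacytidine and decitabine are cytidine analogs that are built into nucleic acids and trap DNA methyltransferases, and the 2 drugs were used at different doses.

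Chemokines are small secreted proteins that guide leukocytes along a gradient. They bind receptors that span the membrane and signal through inhibitory G proteins to integrins and the actin cytoskeleton. In a tumour, ligands are made by the lymphoma cells, macrophages, dendritic cells, fibroblasts and vessels, and the receptors set which leukocytes can respond. Within the T lineage, Ccr9 and Cxcr4 are known from thymocytes, Ccr7 from naive cells that home to lymph nodes, and Ccr4, Cxcr3 and Cxcr6 from activated cells.

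The tumour libraries held 21621580 to 25328708 counted reads and the EG7-OVA libraries 15690749 to 21048978. Levels are given as CPM, the count divided by the TMM-scaled library size and put on the usual common scale of such values. The 10 T cell markers summed to 4315 to 4553 CPM in the tumours and to 3199 to 4311 CPM in EG7-OVA cells, so transcripts of this list were abundant in all libraries. In the tumours its largest part was Ptprc, which is not restricted to T cells, at 2584 and 2230 CPM in P3 and 1954 and 2050 CPM in P0. By the test 2 of the 10 were lower in P3, 1 was higher and 7 did not pass. Markers of several other cell types differed between the tumour groups. The 14 macrophage markers summed to 417 and 398 CPM in P3 tumours, compared with 1568 and 1984 CPM in P0 tumours, and 13 of them were lower in P3 by the test. The 10 dendritic cell markers summed to 70.0 and 53.0 CPM in P3 tumours and to 174 and 208 CPM in P0 tumours. For the 8 B cell markers the sums were 28.4 and 28.6 CPM in P3 and 191 and 367 CPM in P0, with Ighm at 0 in all 4 libraries. In EG7-OVA cells, which were scaled separately, the same B cell list summed to 353 to 459 CPM. There the dendritic cell list summed to 33.2 to 53.3 CPM, and that of NK and cytotoxic T cells to 4.35 to 24.3 CPM. The 12 markers of NK and cytotoxic T cells summed to 36.5 and 26.6 CPM in P3, compared with 180 and 201 CPM in P0. Fibroblast markers summed to 1691 and 1030 CPM in P3 and to 2989 and 3065 CPM in P0, and endothelial markers to 219 and 153 CPM in P3 and to 235 and 234 CPM in P0. Of the 9 fibroblast markers 3 were lower in P3, 1 was higher and 5 did not pass. Of the 7 endothelial markers 1 was lower and 6 did not pass. Neutrophil markers ran the other way, with 20.1 and 69.0 CPM in P3 and 8.95 and 11.1 CPM in P0. Each chemokine difference between P3 and P0 stands beside these marker values, and their part in it was not tested. In bulk tumour RNA, fewer cells of a type, less RNA per cell and expression by the lymphoma cells themselves cannot be told apart.

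Most chemokine ligands were lower in P3 tumours than in P0 tumours, while the receptors split. Of the 54 members, 46 were kept for the test, and 31 of these had an adjusted p under 0.05 (67.4%; edgeR's quasi-likelihood test with Benjamini-Hochberg adjustment over all genes). In P3 tumours 6 rose and 25 fell. Over all 19993 genes tested 38.7% passed, with 18.8% up and 19.9% down. Among 28 ligands 18 fell, 2 rose and 8 did not pass, with a median log2 fold change of -2.40, and this median was the same with the gene that had no read in P3 set at its bound. The 18 include the pseudogene Ccl19-ps2. Among 18 receptors 7 fell, 4 rose and 7 did not pass, with a median of -0.43. The median over all members tested was -1.94, against -0.0019 over all genes. The ligands that rose were Ccl25, called in 8 of 10 alternatives, and Cxcl1, called in 2 of 9. The receptors that rose were Ccr2, Ccr4, Cxcr3 and Cxcr6. Once P0 replicate 1 or P0 replicate 2 was left out, edgeR's calls were lost among the members and over all genes alike. All 31 members kept their direction. DESeq2, run on those subsets after the data had been seen, called part of the members and part of all genes.

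**Figure D1:**
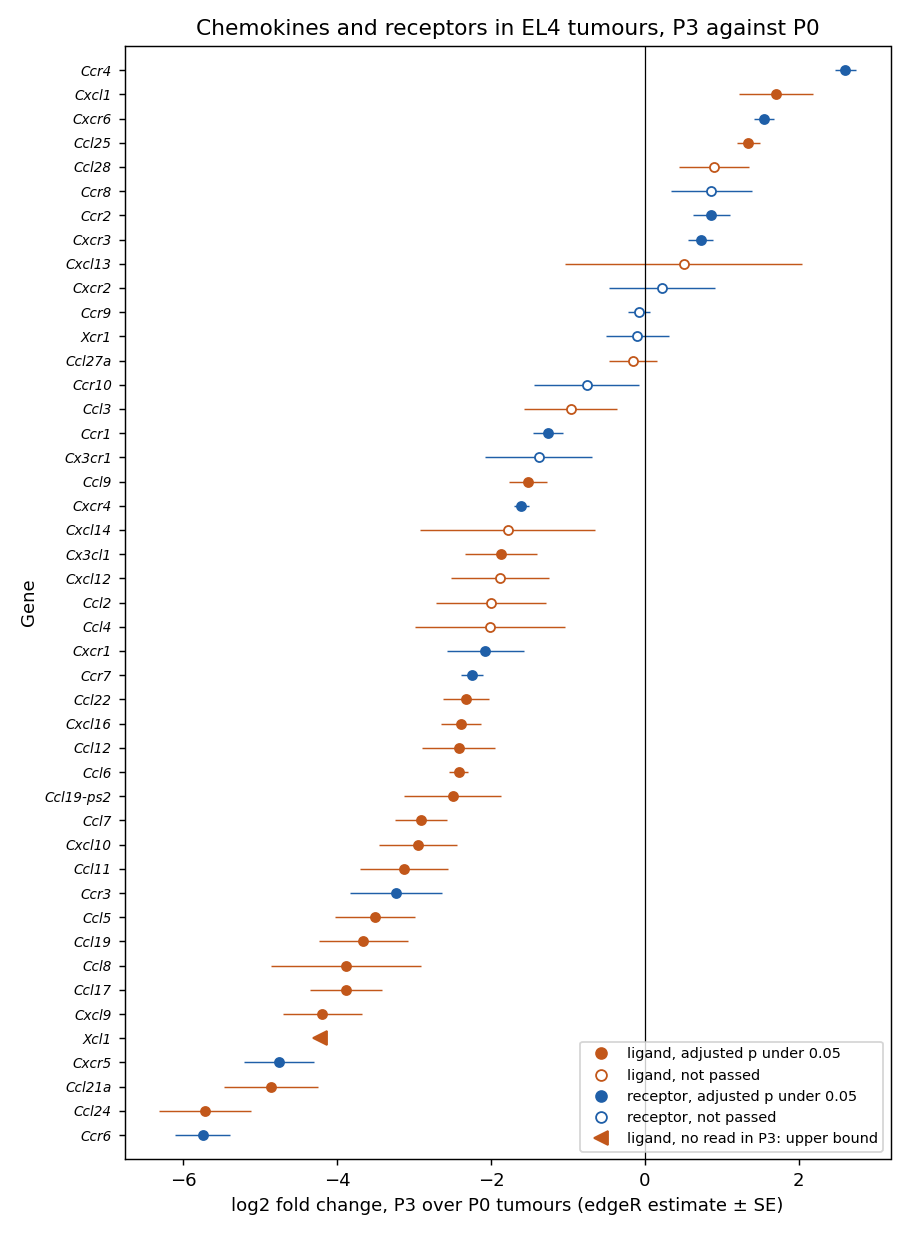
Log2 fold change of 45 tested members in EL4 tumours, P3 over P0 (edgeR estimate with its SE as a bar), ordered by size, with ligands in orange and receptors in blue. Filled points had an adjusted p under 0.05, and the triangle marks Xcl1, which had no read in P3 and stands at its bound. Most filled ligand points lie left of 0, and Ccr4 lies farthest right at 2.61.

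Of the 29 tested members with 10 or more reads in total over the EG7-OVA libraries, 13 fell in P3 tumours. Another 5 of them rose (Ccl25, Ccr2, Ccr4, Cxcr3 and Cxcr6). Of the 17 tested members under 10 reads in EG7-OVA cells, 12 fell and 1 rose, Cxcl1. The median log2 fold change was -1.38 in the first set and -2.50 in the second. The 2 tables were counted and scaled separately, so this split uses detection in EG7-OVA cells only as a label. Reads were summed over DMSO and drug libraries for it, and Ccl2, Ccl4 and Ccr1 had no read under DMSO. The label is thus not one of untreated cells.

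The pair of Ccl25 and Ccr9 is known from the thymus and the small intestine, where Ccl25 is made by epithelial cells and Ccr9 marks T cells that home to it. Ccl25 rose in P3 tumours, with 20.6 and 19.7 CPM in P3 and 8.19 and 7.68 CPM in P0 (log2 fold change 1.34 ± 0.15 SE, adjusted p = 0.00325). The 2 P3 libraries both lay above both P0 libraries. Its receptor Ccr9 had the most reads of all members, 455 and 356 CPM in P3, compared with 434 and 425 CPM in P0. The ranges overlapped and Ccr9 did not pass (-0.08 ± 0.14, adjusted p = 0.68). Ccl25 was also present in all EG7-OVA libraries, at 26.1 to 37.1 CPM. In annotation, 204 of its 7445 exon bases overlap Elavl1 on the opposite strand.

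Ccr9 lies at chr9:123678439-123784330 on the plus strand (mm10), in a block of 6 expressed receptor genes that runs to the end of Ccr2 at 124113557. In that block Cxcr6 and Ccr2 rose, Ccr1 and Ccr3 fell, and Ccr9 and Xcr1 did not pass, so neighbouring receptor genes did not move as one. Cxcr4 lies apart from it at chr1:128588199-128592293 on the minus strand, and Ccr4 at chr9:114490316-114504916 on the minus strand. These 3 receptors carried the most receptor reads in EG7-OVA cells and each was called there with at least 1 drug, so the 250 bases before their RefSeq start sites (build GRCm38.p6) are shown, 5′ to 3′ on the gene's strand, with CpG dinucleotides, the sites at which mammalian DNA is methylated, in capitals. The windows are chr9:123766961-123767210 for Ccr9, chr1:128592300-128592549 for Cxcr4 and chr9:114496545-114496794 for Ccr4.
Ccr9: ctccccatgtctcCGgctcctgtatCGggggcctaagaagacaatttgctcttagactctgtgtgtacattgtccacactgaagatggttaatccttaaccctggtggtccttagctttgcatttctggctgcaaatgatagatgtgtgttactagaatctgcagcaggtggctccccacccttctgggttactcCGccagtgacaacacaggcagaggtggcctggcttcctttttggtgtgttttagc
Cxcr4: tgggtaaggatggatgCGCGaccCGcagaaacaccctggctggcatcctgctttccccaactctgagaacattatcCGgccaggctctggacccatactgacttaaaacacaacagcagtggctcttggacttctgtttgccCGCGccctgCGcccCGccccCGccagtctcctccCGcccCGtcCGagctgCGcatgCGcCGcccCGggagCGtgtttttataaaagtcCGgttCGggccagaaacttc
Ccr4: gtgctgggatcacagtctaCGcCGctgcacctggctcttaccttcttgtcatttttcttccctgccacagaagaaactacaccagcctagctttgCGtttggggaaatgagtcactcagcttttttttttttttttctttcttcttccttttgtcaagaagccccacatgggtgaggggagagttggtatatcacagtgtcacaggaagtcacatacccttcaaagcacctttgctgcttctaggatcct
The Cxcr4 window held 19 CpG, and 19.7% of 32841 RefSeq promoter windows of that length held as many or more. The Ccr9 and Ccr4 windows held 3 CpG each, a number reached by 71.0% of all windows. Over the 43 RefSeq windows of 39 members, some with more than 1 window, the median was 3 CpG, against 6 over all windows. Methylation of these sites was not measured in the tables used here.

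Cxcr4, the receptor for the stromal chemokine Cxcl12, retains cells in bone marrow and other stroma. It fell to 107 and 103 CPM in P3 tumours, compared with 307 and 331 CPM in P0 tumours (-1.60 ± 0.09, adjusted p = 0.00082). The libraries of each group lay close together and far from those of the other group. Cxcl12 itself had 13.0 and 3.03 CPM in P3 and 23.2 and 35.7 CPM in P0, and did not pass (-1.88 ± 0.64, adjusted p = 0.064). Both P3 libraries lay below both P0 libraries but far apart from each other. Limma-voom (-2.21, adjusted p = 0.032) and the unfiltered fit called Cxcl12. DESeq2, median-ratio size factors, a stricter filter and a replicate block did not. The atypical receptor Ackr3, which scavenges Cxcl12, did not pass either (-0.75 ± 0.52, adjusted p = 0.29).

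Ccr7 with Ccl19 and Ccl21, and Cxcr5 with Cxcl13, place T and B cells and dendritic cells in lymphoid tissue. Ccr7 fell to 7.12 and 8.16 CPM in P3, compared with 37.3 and 35.1 CPM in P0 (-2.24 ± 0.14, adjusted p = 0.00093). Cxcr5 had 0.442 and 0.571 CPM in P3 and 9.23 and 18.3 CPM in P0 (-4.75 ± 0.45, adjusted p = 0.0024). Both receptors were thus lower in each P3 library than in any P0 library. Ccl19 had 0.442 and 0.176 CPM in P3, compared with 2.65 and 5.25 CPM in P0 (-3.66 ± 0.58, adjusted p = 0.0079), and without P3 replicate 1 its value was -4.45. Ccl21a had 0.752 and 0.307 CPM in P3, compared with 9.18 and 21.8 CPM in P0 (-4.86 ± 0.61, adjusted p = 0.0043). Its value was -5.63 without P3 replicate 1 and -4.11 without P0 replicate 2. Ccl19 and Ccl21a have near-identical gene copies and pseudogenes in the mouse, among them Ccl19-ps2, which also fell (0.0885 and 0.395 CPM in P3, 1.18 and 1.59 CPM in P0), so the split of reads between copies is uncertain. The value of Ccl19-ps2 was -2.50 ± 0.63, and leaving out P3 replicate 1 or 2 gave -1.79 or -3.91. Cxcl13 could not be placed: it had 16.4 and 0 CPM in P3 and 4.26 and 7.24 CPM in P0. The library of P3 replicate 1 held 370 reads of it and that of replicate 2 none, and its sign reversed without P3 replicate 1.

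Ccr6, the receptor for Ccl20 on B cells, Th17 cells and some dendritic cells, showed the steepest fall among receptors. It had 0.133 and 0.176 CPM in P3 tumours, compared with 7.43 and 9.71 CPM in P0 tumours (-5.75 ± 0.36, adjusted p = 0.00093). That is 3 and 4 reads in P3, against 157 and 244 in P0. Ccl20 had 1 and 6 reads in P3 and 0 and 9 in P0 and was not kept for the test. The B cell markers, which include Cd79a and Ms4a1, were lower in P3 for all 7 tested ones, the same direction as Ccr6 and Cxcr5, and their part in these falls was not tested.

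Ccr4 is the receptor for Ccl17 and Ccl22 and is found on Th2 cells, regulatory T cells and T cell lymphomas. It showed the largest rise of the tested members, with 135 and 111 CPM in P3 tumours, compared with 21.1 and 19.2 CPM in P0 tumours (2.61 ± 0.14, adjusted p = 0.00062). Its ligands moved the opposite way. Ccl22 fell to 4.78 and 8.43 CPM in P3, compared with 28.7 and 37.2 CPM in P0 (-2.32 ± 0.30, adjusted p = 0.0047). Ccl17 had 0.442 and 0.527 CPM in P3 and 4.73 and 9.71 CPM in P0 (-3.89 ± 0.47, adjusted p = 0.0040), and without P0 replicate 2 its value was -3.28. Receptor and ligands did not overlap between the groups. Ccr8, a receptor of regulatory and Th2 cells for Ccl1 and Ccl8, had 2.39 and 7.07 CPM in P3 and 2.89 and 2.31 CPM in P0, and did not pass (0.87 ± 0.53, adjusted p = 0.24). Its ligand Ccl8 was one of the most abundant ligands in P0 tumours. Ccl8 had 10.6 and 0.614 CPM in P3, compared with 66.7 and 98.7 CPM in P0 (-3.88 ± 0.97, adjusted p = 0.029). The P3 libraries lay far apart, and the value was -7.05 without P3 replicate 1 and -2.97 without P3 replicate 2. Ccl1 had 0 and 5 reads in P3 and 9 in each P0 library, and was not kept for the test.

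Cxcl9 and Cxcl10 are induced by interferons and attract activated T cells and NK cells through Cxcr3. Cxcl9 fell to 2.52 and 0.922 CPM in P3 tumours, compared with 23.1 and 39.8 CPM in P0 tumours (-4.19 ± 0.51, adjusted p = 0.0040). Cxcl10 fell to 1.72 and 0.571 CPM in P3, compared with 7.62 and 10.2 CPM in P0 (-2.95 ± 0.51, adjusted p = 0.0099). For both genes P3 replicate 2 was the lowest library, and without P3 replicate 1 the values were -5.08 and -3.94. Cxcl11, the third ligand of Cxcr3, had 2 and 1 reads in P3 and 8 and 3 in P0, a P0 over P3 ratio of 3.60 with an exact 95% counting interval of 0.951 to 20.1, and in this annotation it is a polymorphic pseudogene. Cxcr3 rose, with 22.5 and 27.0 CPM in P3 and 16.2 and 13.7 CPM in P0 (0.73 ± 0.16, adjusted p = 0.021). The NK and cytotoxic markers, all 11 tested ones of which fell in P3, went the other way from Cxcr3.

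Cxcl9 and Cxcl10 neighbour each other on the minus strand of chromosome 5, with Cxcl11, between 92321347 and 92365485. They fell together in the tumours, and Cxcl10 rose under both drugs in EG7-OVA cells, so their 250 upstream bases are given (GRCm38.p6, chr5:92328080-92328329 and chr5:92348890-92349139), with capitals marking matches to GAAANNGAA, a core of the interferon-stimulated response element, on either strand.
Cxcl9: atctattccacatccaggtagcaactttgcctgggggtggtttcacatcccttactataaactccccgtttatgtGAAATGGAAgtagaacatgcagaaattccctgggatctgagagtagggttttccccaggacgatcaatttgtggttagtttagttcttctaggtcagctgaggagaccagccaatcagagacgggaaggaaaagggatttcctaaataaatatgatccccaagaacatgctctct
Cxcl10: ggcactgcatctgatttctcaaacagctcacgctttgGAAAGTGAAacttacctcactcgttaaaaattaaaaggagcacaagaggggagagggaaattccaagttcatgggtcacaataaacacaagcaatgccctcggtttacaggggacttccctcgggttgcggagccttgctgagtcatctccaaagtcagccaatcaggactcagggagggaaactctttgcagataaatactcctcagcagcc
Each window held 1 match. Across all RefSeq windows 7.13% held at least 1, and 8 of the 43 windows of expressed members did. A second motif, the palindromic interferon gamma element TTCNNNGAA, was in neither window and in 3 of the 43, against 7.02% of all windows. A match describes the letters and shows no binding.

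Cxcl16 is a membrane-bound ligand of dendritic cells and macrophages whose receptor Cxcr6 is found on tissue-resident and effector T cells. Cxcl16 had 6.15 and 4.21 CPM in P3 tumours, compared with 22.8 and 31.5 CPM in P0 tumours (-2.39 ± 0.26, adjusted p = 0.0032). Cxcr6 rose to 41.7 and 47.2 CPM in P3, compared with 14.3 and 16.0 CPM in P0 (1.55 ± 0.13, adjusted p = 0.0018). As with Ccr4 and Cxcr3, the receptor was higher and its ligands lower in P3. Of the 3021 exon bases of Cxcl16, 552 overlap Zmynd15 on the opposite strand, and whether reads were counted by strand is not given in the sources used here.

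**Figure D2:**
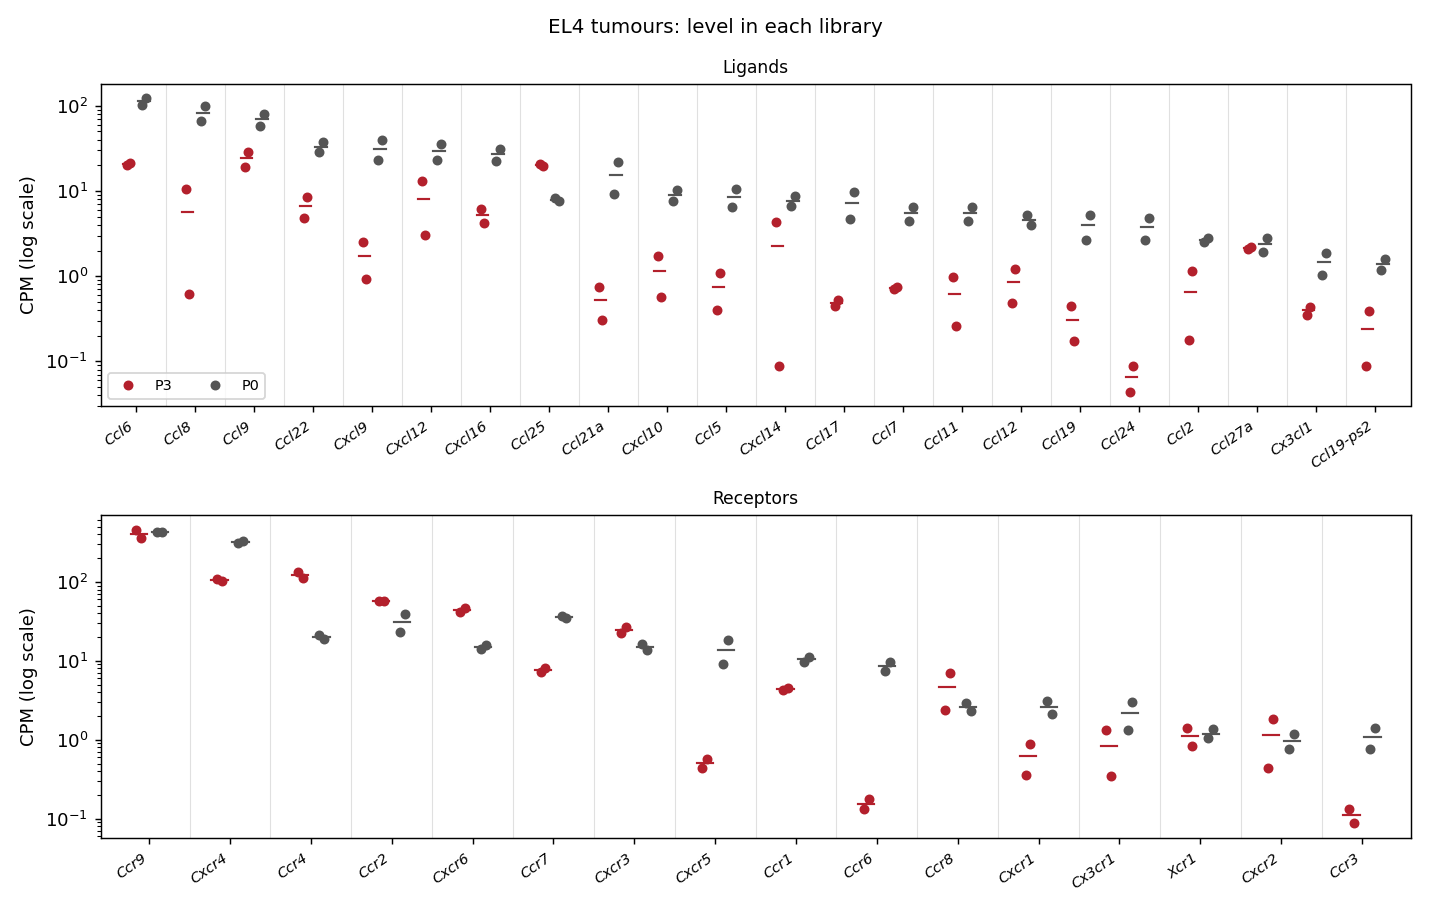
CPM on a log scale in each EL4 tumour library, P3 in red and P0 in grey, for the tested ligands (22, upper panel) and receptors (16, lower panel) with a group mean of 1 CPM or more and no library at 0; bars mark group means. Ccr9 lies highest among receptors in both groups, Ccr4 and Cxcr6 are higher in P3, and P3 points of Ccl8, Cxcl12 and Cxcl14 lie far apart.

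The inflammatory CC ligands attract monocytes, macrophages, eosinophils and effector T cells, and many are made by macrophages. Ccl6 and Ccl9, ligands of Ccr1 made by mouse myeloid cells, were among the most abundant. Ccl6 fell to 20.4 and 21.5 CPM in P3, compared with 103 and 122 CPM in P0 (-2.42 ± 0.12, adjusted p = 0.00062). Ccl9 fell to 19.3 and 28.9 CPM in P3, compared with 57.8 and 80.5 CPM in P0 (-1.52 ± 0.25, adjusted p = 0.0084). Their receptor Ccr1 fell as well, with 4.33 and 4.48 CPM in P3 and 9.80 and 11.3 CPM in P0 (-1.26 ± 0.20, adjusted p = 0.0075). The difference was thus shared by ligand and receptor here, beside the fall of 13 macrophage markers.

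Ligands of Ccr2, the receptor of inflammatory monocytes and some T cells, were lower while the receptor was higher. Ccl7 had 0.708 and 0.746 CPM in P3 and 4.40 and 6.57 CPM in P0 (-2.91 ± 0.34, adjusted p = 0.0036). Ccl12 had 0.486 and 1.23 CPM in P3 and 5.25 and 3.98 CPM in P0 (-2.42 ± 0.47, adjusted p = 0.014; -3.23 without P3 replicate 2). Ccl2, the best known of them, had 0.177 and 1.14 CPM in P3 and 2.51 and 2.79 CPM in P0. Its groups did not overlap, but it did not pass (-2.00 ± 0.71, adjusted p = 0.074). Limma-voom called Ccl2 (-2.47, adjusted p = 0.039). DESeq2, median-ratio size factors, the unfiltered fit, a stricter filter and a replicate block did not. Ccr2 rose to 56.8 and 57.6 CPM in P3, compared with 23.5 and 39.4 CPM in P0 (0.86 ± 0.24, adjusted p = 0.038).

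Ccl3, Ccl4 and Ccl5 are inflammatory ligands made by activated T cells, NK cells and macrophages. Ccl5 fell to 0.398 and 1.10 CPM in P3 tumours, compared with 6.49 and 10.7 CPM in P0 tumours (-3.51 ± 0.52, adjusted p = 0.0065), and its value was -4.43 without P3 replicate 2. Ccl3 (-0.96 ± 0.61) and Ccl4 (-2.01 ± 0.97) had at most 0.915 CPM in any library and did not pass.

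The eotaxins and their receptor were low and fell together. Ccl11, made by fibroblasts, had 0.973 and 0.263 CPM in P3 and 4.5 and 6.41 CPM in P0 (-3.13 ± 0.57, adjusted p = 0.012), and leaving out P3 replicate 1 or 2 gave -4.34 or -2.49. Ccl24 had 3 reads in P3 and 177 in P0, a P0 over P3 ratio of 57.9 with an exact 95% counting interval of 19.5 to 283. Ccr3, the eosinophil receptor, had 0.133 and 0.0878 CPM in P3 and 0.757 and 1.39 CPM in P0 (-3.24 ± 0.59, adjusted p = 0.012). Such intervals cover counting error only.

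By position, the CC ligands of chromosome 11 form 2 blocks. In the block from 82035571 to 82305690, Ccl7, Ccl11, Ccl12 and Ccl8 fell, Ccl2 did not pass and Ccl1 was not tested. In the block from 83525778 to 83664683, Ccl5, Ccl9 and Ccl6 fell and Ccl3 and Ccl4 did not pass. No gene of either block rose.

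The neutrophil-attracting CXC ligands, which act on Cxcr2 and Cxcr1, were scarce. Cxcl1 rose, with 0.708 and 1.14 CPM in P3 and 0.237 and 0.318 CPM in P0 (1.71 ± 0.48, adjusted p = 0.039). DESeq2, limma-voom, the unfiltered fit and the fit with a replicate block did not call it, nor did edgeR without P3 replicate 2 or either P0 library. Its neighbours in a cluster of 5 genes on chromosome 5 were not kept for the test. Cxcl2 had 4 and 83 reads in P3 and 2 in each P0 library. Cxcl3 had 5 and 16 reads in P3 and 0 and 1 in P0, a P3 over P0 ratio of 21.4 (exact 95% counting interval 3.44 to 885). Cxcl5 had 0 and 4 reads in P3 and 9 and 14 in P0, and Cxcl15 had 2 and 0 in P3 and 6 and 8 in P0. The cluster thus held genes with more and genes with fewer reads in P3. P3 replicate 2, which held most of the Cxcl2 reads, also had the highest sum of neutrophil markers, and the part of neutrophils in these values was not tested. Cxcr2 did not pass, with 0.442 and 1.84 CPM in P3 and 0.757 and 1.19 CPM in P0 (0.22 ± 0.69). Cxcr1 fell to 0.354 and 0.878 CPM in P3, compared with 3.08 and 2.15 CPM in P0 (-2.07 ± 0.50, adjusted p = 0.025; -2.86 without P3 replicate 2).

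Of the single-member families, Xcl1, a product of NK and CD8 T cells that attracts cross-presenting dendritic cells, had no read in P3 and 23 and 34 reads in P0. It was at least 18.6-fold lower in P3, with P3 set at 3 counts over the group. Its receptor Xcr1 had 1.42 and 0.834 CPM in P3 and 1.04 and 1.35 CPM in P0, and did not pass (-0.09 ± 0.41). Cx3cl1, a membrane-anchored ligand, had 0.354 and 0.439 CPM in P3 and 1.04 and 1.87 CPM in P0 (-1.87 ± 0.46, adjusted p = 0.028), and DESeq2 did not call it. Its receptor Cx3cr1, of monocytes and macrophages, overlapped between groups, with 1.33 and 0.351 CPM in P3 and 1.33 and 3.02 CPM in P0 (-1.38 ± 0.70, adjusted p = 0.17). Cxcl14 had 4.38 and 0.0878 CPM in P3 and 6.58 and 8.79 CPM in P0, and did not pass (-1.78 ± 1.14). Ccl27a was at 1.94 to 2.79 CPM in all 4 libraries (-0.15 ± 0.31). The remaining tested members, Ccl28 and Ccr10, stayed under 1 CPM and did not pass, and Cxcl17 had 5 or 6 reads in every library.

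In EG7-OVA cells the family was reduced to a few receptors and ligands, as far as 10 reads can show. Of 66 listed members 31 had 10 or more reads, 21 were kept for the test and 23 had no read at all. Levels of different genes can be compared only per length. In DMSO cells Cxcr4 had 115 ± 14.6 RPKM (CPM per kilobase of annotated exon, mean ± SD, n = 2), Ccr9 33.7 ± 1.75, Ccr4 22.2 ± 3.45, Ccr8 15.3 ± 4.94, Cxcr6 12.6 ± 1.85, Ccl25 4.48 ± 0.396 and Ccr7 1.35 ± 0.117. Of neighbours in this order, Ccr8 and Cxcr6 overlapped between libraries and the others did not. The annotated exons of Ccr9 span 10260 bases, of which 2223 overlap other genes, so that its level per length is a low estimate where shorter transcripts dominate. In the tumours Cxcr4 also had the highest mean per length, at 58.1 ± 1.78 RPKM in P3 and 177 ± 9.38 RPKM in P0. Ccr4 (39.6 ± 5.50) and Ccr9 (39.6 ± 6.83) followed in P3, and Ccl8 (162 ± 44.2), Ccl6 (62.6 ± 7.78) and Ccr9 (41.8 ± 0.639) in P0. The P0 libraries of Cxcr4 (170 and 183 RPKM) lay within the span of those of Ccl8 (131 and 193 RPKM), so their order is open. Ccr4 and Ccr9 overlapped between the P3 libraries.

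With azacytidine 2 ligands rose and 3 receptors fell in EG7-OVA cells. Of the 21 members tested, 5 passed (23.8%), against 20.3% of all 19123 genes (13.6% higher and 6.7% lower), so the share of members called lay near the background. Without DMSO replicate 1, or without azacytidine replicate 1 or 2, fewer members were called, and fewer of all genes as well. Cx3cl1 and Cxcl10 rose, and Ccr9, Cxcr4 and Cxcr6 fell. The median log2 fold change of the members was -0.07, against 0.03 over all genes.

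With decitabine 2 ligands and 4 receptors rose and 2 receptors fell. It gave 8 calls among the 21 members (38.1%), against 16.7% of all genes (12.4% higher and 4.3% lower). With DMSO replicate 1 or decitabine replicate 1 left out, the share called was smaller among the members and over all genes. In proportion it shrank more among the members. Cx3cl1, Cxcl10, Ccr4, Ccr7 and Cxcr1 were among those that rose, and Ccr9 and Cxcr4 fell. The median of the members was 0.46, against 0.04 over all genes. Both drugs were set against the same 2 DMSO libraries, so the likeness of the 2 comparisons is no independent repeat, and the values are given side by side. The macrophage markers summed to 28.8 and 24.4 CPM under azacytidine and 49.2 and 41.5 CPM under decitabine, against 7.49 and 9.62 CPM under DMSO, with C1qa, C1qb and C1qc at 0 in all 6 libraries. In each drug comparison 6 of the 9 tested macrophage markers rose. Fibroblast markers summed to 80.4 and 32.8 CPM under azacytidine and 70.1 and 55.0 CPM under decitabine, against 3.37 and 32.4 CPM under DMSO, with Col3a1 and Dcn at 0 in all 6 libraries, and 3 of the 4 tested ones rose with each drug. The part of either marker list in the chemokine calls was not tested.

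**Figure D3:**
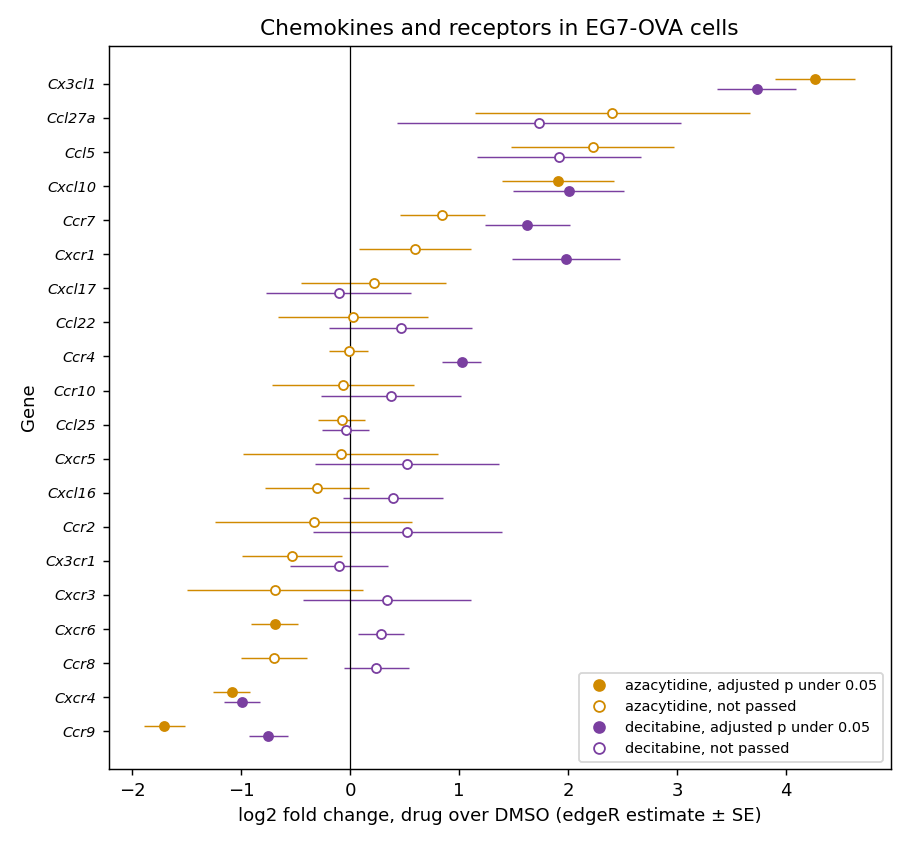
Log2 fold change of 20 tested members in EG7-OVA cells, azacytidine over DMSO (amber) and decitabine over DMSO (purple), as edgeR estimates with SE bars, ordered by the azacytidine value. Filled points had an adjusted p under 0.05. Cx3cl1 lies farthest right for both drugs, Ccr9 and Cxcr4 are lower for both, and the 2 drugs share their DMSO libraries.

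Cx3cl1, also called fractalkine, showed the largest change of the tested members. It had 42.1 and 33.1 CPM under azacytidine and 17.5 and 34.5 CPM under decitabine, against 2.16 and 1.74 CPM under DMSO. All 4 drug libraries lay far above both DMSO libraries. The log2 fold change was 4.26 ± 0.37 for azacytidine (adjusted p = 8.1e-05) and 3.73 ± 0.36 for decitabine (adjusted p = 0.00018), and the decitabine value was 3.14 without decitabine replicate 2. Its 250 upstream bases hold 14 CpG, a number that 29.4% of all windows reach or pass. The genes Ccl17 and Ccl22 flank it in the genome. In these cells Ccl22 stayed at 0.302 to 0.561 CPM in all libraries and did not pass with either drug (0.02 ± 0.69 for azacytidine, 0.46 ± 0.65 for decitabine), and Ccl17, with 3 to 9 reads in each library, was not kept. Cx3cr1 was between 1.44 and 2.87 CPM throughout and did not pass. In the tumours, Cx3cl1, Ccl17 and Ccl22 were all called lower in P3 by edgeR.

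Cxcl10 rose under both drugs from few reads. It had 1.31 and 1.55 CPM under azacytidine and 1.63 and 1.42 CPM under decitabine, against 0.452 and 0.299 CPM under DMSO. These are 20, 26, 32 and 26 reads in the drug libraries, against 9 and 6 in the DMSO libraries. The change was 1.91 ± 0.51 for azacytidine (adjusted p = 0.026) and 2.00 ± 0.51 for decitabine (adjusted p = 0.023). DESeq2 did not call it, nor did edgeR without either DMSO library or either library of the drug. Ccl5 had 0.915 and 0.775 CPM under azacytidine and 0.918 and 0.437 CPM under decitabine, against 0.251 and 0.0997 CPM under DMSO. All its drug libraries lay above both DMSO libraries, and it did not pass (2.22 ± 0.75, adjusted p = 0.062, and 1.92 ± 0.75, adjusted p = 0.11). Cxcl9 did not reach 10 reads in these cells.

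Ccl3, Ccl4 and Ccr1, near the detection limit, had more reads in drug libraries, without a test. They reached 10 reads in total only through the drug libraries, so this direction follows in part from that filter. Ccl17 and Ccl28, likewise not kept for the test, did not share it. Ccl17 had 7 and 9 reads under DMSO, 7 and 4 under azacytidine and 3 and 5 under decitabine. Ccl28 had 10 and 5 reads under DMSO, 6 and 3 under azacytidine and 10 and 3 under decitabine. Ccl3 had 5 and 1 reads under azacytidine and 17 and 3 under decitabine, against 0 and 1 under DMSO. The decitabine over DMSO ratio was 21.1, with an exact 95% counting interval of 3.37 to 874. Ccl4 had 3 and 1 reads under azacytidine and 4 and 7 under decitabine, against none under DMSO, at least 3.86-fold higher with decitabine. Ccr1, the receptor for Ccl3, had 1 and 0 reads under azacytidine and 18 and 3 under decitabine, against none under DMSO, at least 7.38-fold higher with decitabine. For Ccl3 and Ccr1 most reads came from decitabine replicate 1. Ccl25, the most abundant ligand of DMSO cells, did not pass with either drug (-0.08 ± 0.22 and -0.04 ± 0.22).

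Ccr9 fell with both drugs. It had 94.9 and 117 CPM under azacytidine and 184 and 227 CPM under decitabine, against 359 and 334 CPM under DMSO. The 3 groups did not overlap, with azacytidine lowest and DMSO highest. The change was -1.70 ± 0.19 for azacytidine (adjusted p = 0.00024) and -0.75 ± 0.18 for decitabine (adjusted p = 0.018), and the decitabine call was lost without DMSO replicate 1 or decitabine replicate 1 (-0.65 to -0.93 over all alternatives). Cxcr4 fell to 102 and 93.8 CPM under azacytidine and 100 and 110 CPM under decitabine, against 227 and 190 CPM under DMSO (-1.09 ± 0.17, adjusted p = 0.0017, and -0.99 ± 0.17, adjusted p = 0.0033). The 2 drugs thus gave Cxcr4 levels that overlapped. Cxcr4 was also lower in P3 tumours, whereas Ccr9 was not called there.

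Ccr4 rose with decitabine and was not called with azacytidine. It had 74.1 and 61.9 CPM under azacytidine and 142 and 137 CPM under decitabine, against 76.3 and 61.2 CPM under DMSO. Azacytidine and DMSO overlapped, and both decitabine libraries lay above all others. The change was -0.02 ± 0.18 for azacytidine (95% interval -0.41 to 0.38) and 1.02 ± 0.18 for decitabine (adjusted p = 0.0040). Cxcr6 had 14.2 and 15.7 CPM under azacytidine and 29.0 and 30.1 CPM under decitabine, against 26.8 and 21.7 CPM under DMSO. It fell with azacytidine near the threshold (-0.69 ± 0.21, adjusted p = 0.044) and did not pass with decitabine (0.28 ± 0.21). The azacytidine call was lost in limma-voom (adjusted p = 0.053), with a replicate block, with only the 4 libraries compared, and without DMSO replicate 1 or any single drug library, over all of which the change ran from -0.88 to -0.56.

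**Figure D4:**
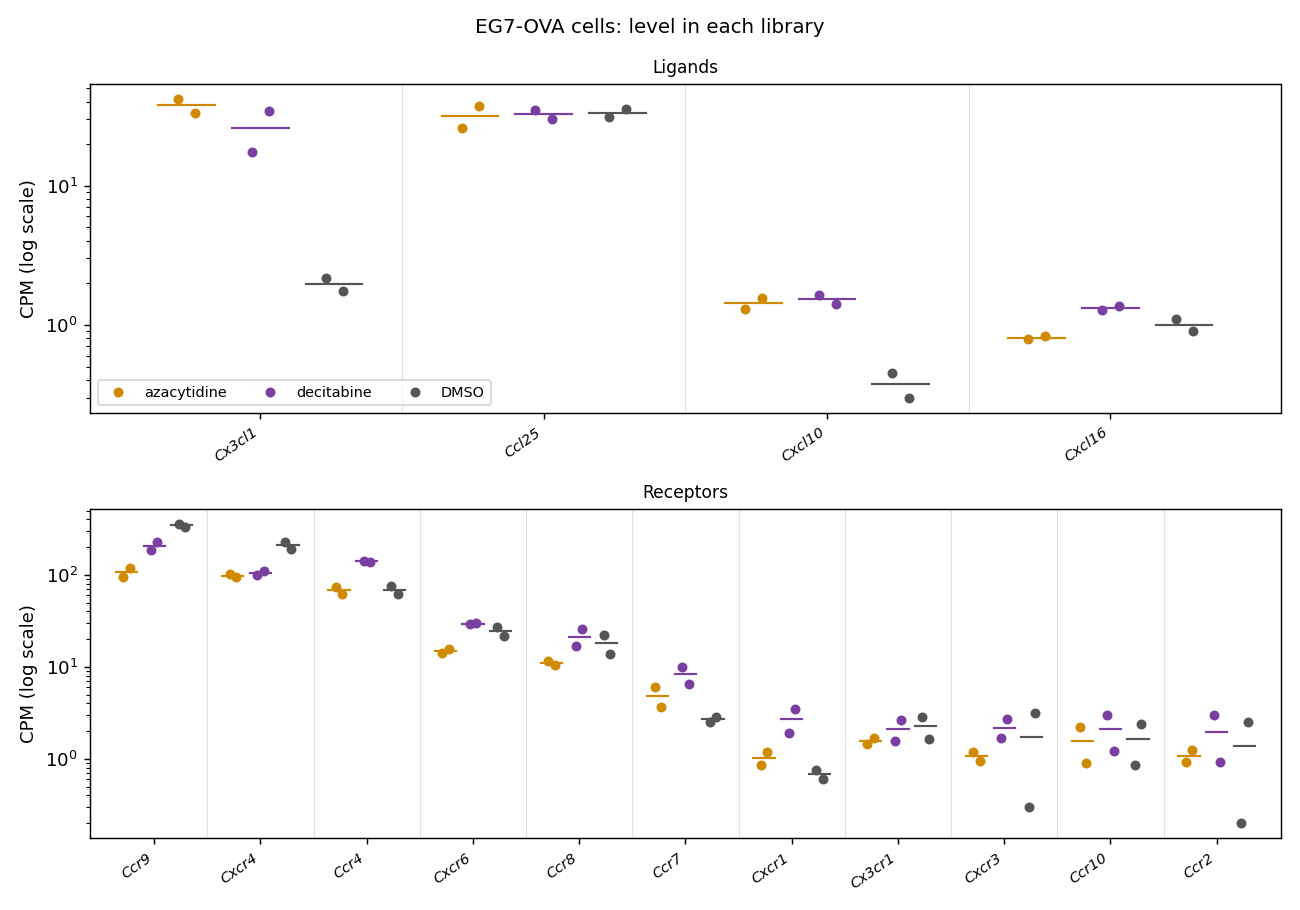
CPM on a log scale in each EG7-OVA library under azacytidine (amber), decitabine (purple) and DMSO (grey), for the tested ligands (4, upper panel) and receptors (11, lower panel) with a group mean of 1 CPM or more and no library at 0; bars mark group means. Cx3cl1 and Cxcl10 are high under both drugs, Ccr9 and Cxcr4 are low under both, and the 2 highest Ccr4 points are those of decitabine.

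Ccr7 and Cxcr1, both low in EG7-OVA cells, rose with decitabine. Ccr7 had 6.01 and 3.64 CPM under azacytidine and 9.99 and 6.56 CPM under decitabine, against 2.51 and 2.84 CPM under DMSO. It passed with decitabine (1.63 ± 0.39, adjusted p = 0.018) and not with azacytidine (0.85 ± 0.39, adjusted p = 0.16), although all its drug libraries lay above both DMSO libraries. Cxcr1 had 0.849 and 1.19 CPM under azacytidine and 1.89 and 3.50 CPM under decitabine, against 0.754 and 0.598 CPM under DMSO (azacytidine 0.59 ± 0.52, adjusted p = 0.47, and decitabine 1.98 ± 0.50, adjusted p = 0.022). The calls for Ccr7 and Cxcr1 were lost without DMSO replicate 1. For Ccr7 it was lost without decitabine replicate 1 too, and for Cxcr1 without DMSO replicate 2 or decitabine replicate 2.

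Ccr8 did not pass with either drug, at 11.7 and 10.4 CPM under azacytidine and 16.8 and 25.8 CPM under decitabine, against 22.1 and 13.9 CPM under DMSO (-0.70 ± 0.30 and 0.24 ± 0.30). For Ccr2 and Cxcr3 the 2 DMSO libraries lay far apart, at 0.201 and 2.54 CPM for Ccr2 and at 0.302 and 3.14 CPM for Cxcr3. Neither passed with either drug. Both receptors, which rose in P3 tumours, stayed at or under 3.14 CPM in every EG7-OVA library. Ccr10, Cxcl16, Cxcl17, Cxcr5 and Ccl27a were between 0 and 3.01 CPM and did not pass.

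Azacytidine and decitabine differ in the sugar, ribose in azacytidine and deoxyribose in decitabine. They were given at 1.5 and 0.2 µM, so their difference is not one at matched dose and the values stand side by side. In the same fit, azacytidine against decitabine gave no call among the 21 members by edgeR, nor among all 19123 genes (0%), with 6 members at an unadjusted p under 0.05, and limma-voom gave none either. DESeq2 called 3 members, Ccr4, Ccr9 and Cxcr6, against 0.926% of all genes, and gave 11 of the 21 members no adjusted p. The same 3 were called by edgeR without a low-count filter, among 43 members tested. In that fit 112 of all 35317 genes were called higher and 266 lower. All 3 were lower under azacytidine than under decitabine. The difference was -1.04 ± 0.18 for Ccr4 (95% interval -1.44 to -0.64, adjusted p = 0.16), -0.95 ± 0.18 for Ccr9 (-1.36 to -0.55, adjusted p = 0.16) and -0.98 ± 0.21 for Cxcr6 (-1.45 to -0.50, adjusted p = 0.22). Without DMSO replicate 2, edgeR called Ccr4 (adjusted p = 0.044) and Ccr9 (adjusted p = 0.050). Others at an unadjusted p under 0.05 were Ccr8 (-0.94) and Cxcr1 (-1.39), both lower under azacytidine. For Cx3cl1 the difference was 0.53 with an interval of -0.16 to 1.22, for Cxcl10 -0.09 with an interval of -1.12 to 0.93, and for Cxcr4 -0.10 with an interval of -0.47 to 0.27.

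Other genes of the pathway were read from a list of atypical receptors, chemokines with other names, G proteins and their regulators, arrestins and receptor kinases, effectors of migration and ligand-processing enzymes. In P3 against P0 tumours, 28 of its 56 tested genes passed (50%, against 38.7% of all genes), 15 up and 13 down (all genes 18.8% and 19.9%), with a median of -0.05. In EG7-OVA cells, 13 of 50 passed with azacytidine (26%), 10 up and 3 down, with a median of 0.19, and 9 of 50 passed with decitabine (18%), 8 up and 1 down, with a median of 0.29. The 2 drug shares lay near the 20.3% and 16.7% of all genes. Without P0 replicate 1 or P0 replicate 2, edgeR's calls in the tumours were lost for the list and for all genes alike. Without azacytidine replicate 1, fewer genes of the list were called in the azacytidine comparison, and fewer of all genes as well.

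Among the G protein genes, Gng2, a gamma subunit, and Rgs14, a regulator that shortens Gi signalling, rose in all 3 comparisons. Gng2 had 110 and 98.9 CPM in P3 and 40.4 and 47.1 CPM in P0 tumours (1.25 ± 0.12). In EG7-OVA cells Gng2 had 124 and 105 CPM under azacytidine and 141 and 160 CPM under decitabine, against 61.4 and 66.5 CPM under DMSO (0.84 ± 0.17 and 1.24 ± 0.17). Rgs14 had 27.2 and 23.0 CPM in P3 and 8.57 and 9.39 CPM in P0 tumours (1.48 ± 0.16). Its levels were 17.6 and 18.4 CPM under azacytidine and 11.7 and 15.1 CPM under decitabine, against 5.73 and 6.53 CPM under DMSO (1.55 ± 0.27 and 1.13 ± 0.26). Neither gene overlapped between the groups of these 3 comparisons. The Gng2 call was lost without azacytidine replicate 1 for azacytidine, and the Rgs14 call without DMSO replicate 1 or decitabine replicate 2 for decitabine. Rgs2 rose with both drugs, at 90.4 and 75.2 CPM under azacytidine and 138 and 134 CPM under decitabine, against 25.4 and 45.1 CPM under DMSO, and its azacytidine call was lost without azacytidine replicate 1. Rgs18, a regulator of myeloid cells and platelets, had 10.9 and 30.5 CPM in P3 and 0.521 and 0.915 CPM in P0 tumours (4.82 ± 0.62; 3.88 without P3 replicate 2).

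Among the effectors, Prex1, an activator of Rac, rose in P3 tumours (0.78 ± 0.13) and with both drugs (0.80 ± 0.24 each). Rac2, the Rac of blood cells, fell in P3 tumours, with 61.7 and 54.2 CPM in P3 and 87.1 and 105 CPM in P0 (-0.73 ± 0.13), and rose with azacytidine (1.04 ± 0.19) and decitabine (0.94 ± 0.19). Elmo1, the partner of Dock2, rose in P3 tumours (0.42 ± 0.09) and fell with azacytidine (-0.82 ± 0.19) and decitabine (-0.64 ± 0.19). The integrin subunit Itga4 fell to 6.01 and 4.83 CPM in P3, compared with 48.2 and 69.0 CPM in P0 (-3.43 ± 0.23), while Itgal rose (0.77 ± 0.11). With azacytidine the Prex1 call held in 6 of 13 alternatives (lost in limma-voom, with a replicate block and with only the 4 libraries compared, among others), and with decitabine in 8 of 13. The Elmo1 call held in 11 of 13 with azacytidine and in 7 of 13 with decitabine, and was lost under the replicate block with decitabine and in the tumours. The Rac2 call was lost without azacytidine replicate 1 for azacytidine and without decitabine replicate 2 for decitabine. All 4 tested atypical receptors missed the threshold in the tumours, as did all 3 with each drug.

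Of the ligand-processing genes, Cd74, a chaperone of MHC class II that is also the receptor of the chemokine-like Mif, had 76.0 and 39.1 CPM in P3 tumours, compared with 624 and 943 CPM in P0 tumours (-3.77 ± 0.39). In EG7-OVA cells it rose to 40.9 and 25.4 CPM under azacytidine and 65.6 and 66.2 CPM under decitabine, against 4.52 and 4.24 CPM under DMSO (2.92 ± 0.26 and 3.91 ± 0.26). Mmp9, a protease that trims several CXC ligands, had 18.8 and 77.3 CPM in P3 and 4.07 and 2.98 CPM in P0 tumours (3.77 ± 0.71, with 4.48 and 2.41 without P3 replicate 1 and 2). It passed with both drugs, at 48 and 17 reads under azacytidine and 34 and 48 reads under decitabine, against 0 and 2 reads under DMSO. Tpst2, which adds the tyrosine sulphate that many chemokine receptors carry, rose in P3 tumours, with a mean of 74.9 ± 11.6 CPM in P3 and 30.9 ± 2.53 CPM in P0 (SD, n = 2 each, 1.28 ± 0.14). Pf4, a platelet CXC chemokine, fell in P3 (-1.79 ± 0.24), with means of 1.96 ± 0.21 CPM in P3 and 6.80 ± 0.11 CPM in P0.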

How the data were processed

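Counts per gene symbol from 10 of the 14 libraries were used. The human NKYS table of the series was not used here. The tumour table holds raw counts as deposited by the authors. The EG7-OVA table holds expected counts as deposited, nearly all whole (145 values in 62 entries were not), and these were rounded. Reads were handled with fastp, Trim Galore, STAR and featureCounts on mm10, per the submitters' processing notes, which give no versions. Strand use in counting is not given in the sources used here.

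The 2 tables were fitted separately with edgeR 4.0.16 (filterByExpr, TMM, quasi-likelihood test, Benjamini-Hochberg over all genes, adjusted p 0.05, two-sided) in R 4.3.3, with all 6 EG7-OVA libraries in 1 fit. Errors after ± are SE for log2 fold changes and SD for means. The SE was derived from the test, as the absolute log2 fold change over the square root of its F statistic. The 95% intervals of log2 fold changes were built from this SE. The fit was tested on simulated data. Alternatives were DESeq2 1.42.0, limma-voom (limma 3.58.1), median-ratio size factors, other low-count filters, libraries left out, a replicate block and fits of 4 libraries alone. The members, gene lists and markers were chosen with earlier results of these data known. Values per library are given for members that passed a test or averaged 1 CPM or more in a group; other members have ranges or reads, and listed signalling genes were named after their values were seen. Ratios for genes with 1 to 3 reads in a group carry exact 95% intervals, and a group at 0 was set to 3 counts; both cover counting error only. Positions and exon lengths come from GENCODE on mm10 (53 of 54 members matched), promoters from RefSeq. The values of 1 receptor are not reported here, although counts and medians over the members include it.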

Additional observations from a re-analysis of the deposited data

How the results depend on the processing

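In the tumours, all 31 called members kept their direction in every alternative, and 0 to 40 members and 0 to 37 signalling genes were called with 1 library left out; the 0 came without P0 replicate 1 or P0 replicate 2, the 40 without P3 replicate 1 and the 37 without either P3 library. DESeq2 called 20 members and 13 signalling genes without P0 replicate 1, and 18 and 14 without P0 replicate 2, an alternative chosen after seeing the data. In EG7-OVA cells all called members kept their direction too. With 1 library left out, 3 to 5 members and 4 to 12 signalling genes were called for azacytidine, 3 to 8 members for decitabine and 0 to 2 members for azacytidine against decitabine. Without a filter 21 and 18 signalling genes were called for azacytidine and decitabine, and DESeq2 called 14 for decitabine. For azacytidine against decitabine, DESeq2 and the unfiltered fit called 3 members each. Where 1 library stood for a group it was assumed to vary like the others. The causes were not tested.

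The library names share replicate numbers, but the DMSO titles carry other numbers than the columns. Deviations of same-numbered libraries correlated at -0.086 for the tumours and at -0.229, -0.167 and 0.25 in EG7-OVA cells, so the numbers were not taken to pair libraries. With a replicate block 31 members and 20 signalling genes were called in the tumours, 4 and 11 for azacytidine, 8 and 7 for decitabine, and 0 members between the drugs.

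The sign reversed only in members that were not called. In the tumours Cxcl13 was at -3.25 with limma-voom and -1.02 with the replicate block, and ran from -10.05 to 1.49 with 1 library left out. Cxcr2 was at -0.082 with limma-voom and ran from -1.15 to 0.91, Xcr1 from -0.51 to 0.22, Ccr9 from -0.25 to 0.078, Ccr8 from -0.12 to 1.46 and Ccl27a from -0.39 to 0.13. For azacytidine, limma-voom gave 0.53 for Ccr2 and 0.090 for Cxcr3. Leaving out 1 library gave -1.24 to 2.35 for Ccr2, -1.58 to 1.75 for Cxcr3, -0.21 to 0.13 for Ccr4, -0.88 to 0.81 for Ccr10 and -0.39 to 0.12 for Ccl25. For decitabine it gave -0.47 to 1.26 for Ccr10, -0.59 to 3.21 for Ccr2, -0.53 to 0.34 for Cx3cr1, -0.54 to 2.78 for Cxcr3, -0.19 to 0.052 for Ccl25 and -0.12 to 0.60 for Ccr8. Few reads, or reads held mostly by 1 library, limit the 10 EG7-OVA members and 8 tumour members that were not kept for the test. In the tumours Cxcl2 had 91 reads, 83 of them in P3 replicate 2.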
